A study of Mus musculus with 3 samples.

Results

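The primitive streak is the band of cells through which the epiblast of the gastrulating embryo leaves to form mesoderm and definitive endoderm. Nodal, Wnt and Bmp signals induce it, and they act through a small group of transcription factors. The T-box factors T (Brachyury) and Eomes and the homeobox factor Mixl1 start the programme, Gsc marks its anterior end and Evx1 its posterior part, Mesp1, Mesp2 and Tbx6 act in the mesoderm that leaves it, and the secreted ligand Fgf8 is needed for cells to migrate away. In ES cells kept undifferentiated these genes are known to be silent or low, and many are Polycomb targets.

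RNA-seq values of these 9 genes, T, Eomes, Mixl1, Mesp1, Mesp2, Evx1, Gsc, Tbx6 and Fgf8, were taken from mouse ES cells with and without Pcgf1, the subunit that defines the PRC1.1 form of Polycomb repressive complex 1. Members were chosen by their gene symbol, as known regulators of the streak and the early mesoderm. All 9 were listed under their own symbol in each sample, out of 25350 gene names listed alone in all 3 samples.

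The series holds 3 samples of C57BL/6 mouse embryonic stem cells with 1 library per genotype: wild type (WT), Pcgf1KO (Pcgf1-/-), and Pcgf1KO+ Pcgf1_flag (Pcgf1-/-+Pcgf1). Pcgf1-/- cells were made by Cas9 cutting in exons 2 and 3 of Pcgf1 and came from colonies selected with puromycin. The number of clones behind the library is not given in the sources used here. Pcgf1-/-+Pcgf1 cells were Pcgf1-/- cells that had been given an N-terminally FLAG-tagged Pcgf1 cDNA by lentivirus and selected with puromycin. ES cells of the study were kept with mitomycin-inactivated fibroblast feeders in serum and LIF, the cytokine that holds ES cells undifferentiated. Each value below comes from 1 library, so that no spread between cultures, test or p-value can be given. "Higher" and "lower" describe these libraries. Comparisons that share a library are not independent of each other.

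Levels are in FPKM (fragments per kilobase of transcript, scaled to all mapped fragments of the library), so that levels of genes of different length can be compared. A pseudocount of 0.1 FPKM was added before each ratio. Genes past 2-fold, which is 1 on the log2 scale, were called higher or lower. This ratio understates the difference of a gene listed near 0. No read counts were used. The FPKM worth of 1 fragment was sought only within a window set in advance, and fragment numbers given below rest on it. They are approximate. FPKM of Pcgf1 itself was 13.95 in WT, 5.88 in Pcgf1-/- cells and 7.86 in Pcgf1-/-+Pcgf1 cells. Since the transcript left by the deletion still gives reads, this level does not check the deletion. Between 12469 and 13255 genes per library were above 0. Of the pluripotency factors, Pou5f1 (Oct4) was abundant in all libraries, at 670, 518 and 626 FPKM in WT, Pcgf1-/- and Pcgf1-/-+Pcgf1 cells. In the same order Nanog was at 68.2, 46.3 and 123 FPKM, and Klf4 was low, at 2.62, 1.19 and 8.07 FPKM.

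The 7 streak regulators listed above 0 were low in all libraries, and Mixl1 and Mesp1 were listed at 0 in each. In files without read counts an exact 0 can be a failed estimate. Gdf3, Spry2 and Spry4, genes known to be expressed in ES cells and looked up after their values were seen, were also listed at 0 in all 3 libraries. An entry of 0 is therefore not read as absence of the transcript. The summed level of all 9 was 3.52 FPKM in WT, 6.39 in Pcgf1-/- cells and 5.23 in Pcgf1-/-+Pcgf1 cells. Only Eomes reached 1 FPKM in WT. Eomes, Mesp2 and Fgf8 reached it in Pcgf1-/- cells, and Eomes and Mesp2 in Pcgf1-/-+Pcgf1 cells. In WT the order of the levels from the top was Eomes, Mesp2, Fgf8, Tbx6, T, Gsc and Evx1. In Pcgf1-/- cells Eomes, Mesp2 and Fgf8 kept the first places, and Gsc and Evx1 stood above Tbx6 and T. In Pcgf1-/-+Pcgf1 cells the order was Mesp2, Eomes, Fgf8, Gsc, T, Tbx6 and Evx1. Without replicates it cannot be said which neighbours in these orders differ beyond their spread.

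**Figure D1:**
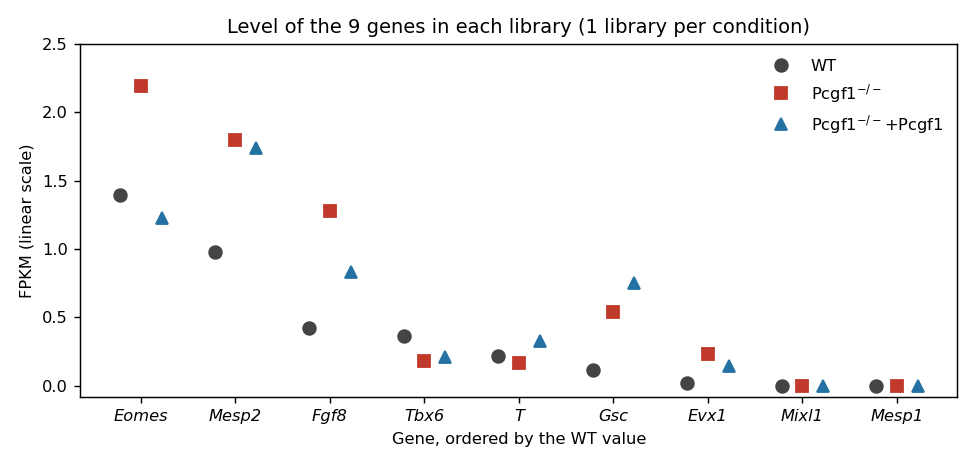
Level of each gene in FPKM on a linear axis (vertical), by gene in the order of the WT value (horizontal), with 1 point per library. Fgf8, Gsc and Evx1 are higher in Pcgf1-/- than in WT cells, and Mixl1 and Mesp1 lie at 0 in all 3 libraries.

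The T-box factors differed in direction. Eomes, which drives mesendoderm and cardiac mesoderm formation (ENSMUSG00000032446, mm10 chr9:118478212-118486132, plus strand), was at 1.39 FPKM in WT, 2.195 in Pcgf1-/- cells and 1.22 in Pcgf1-/-+Pcgf1 cells. These levels correspond to about 96, 161 and 88 fragments, the best measured of the 9 genes. The Pcgf1-/- library was the highest, and the other libraries lay close to each other. The log2 ratio was 0.62 for Pcgf1-/- over WT and -0.79 for Pcgf1-/-+Pcgf1 over Pcgf1-/-, both within 2-fold.

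T, the factor that marks the whole streak and the notochord (ENSMUSG00000062327, chr17:8434423-8442496, plus strand), was at 0.221 FPKM in WT, 0.17 in Pcgf1-/- cells and 0.331 in Pcgf1-/-+Pcgf1 cells, or about 5, 7 and 13 fragments. The order of the levels in WT and Pcgf1-/- cells is thus the opposite of the order of the fragments. A first exon within the first intron stood at 0.145 FPKM in WT, 0 in Pcgf1-/- cells and 0.105 in Pcgf1-/-+Pcgf1 cells. In WT its level did not reach the principal last exon (0.0761 FPKM there), as in a short annotated transcript, whereas in Pcgf1-/-+Pcgf1 cells the last exon held the whole level of the gene (0.331 FPKM). At the upstream first exon, the start of the principal transcript, T was at 0.0761 FPKM in WT, 0.17 in Pcgf1-/- cells and 0.226 in Pcgf1-/-+Pcgf1 cells, or about 3, 7 and 9 fragments. The log2 ratio of T in Pcgf1-/- over WT was -0.25 from all transcripts and 0.62 from last-exon entries only, so that its direction depended on which transcripts were counted.

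Tbx6, which specifies paraxial mesoderm at the expense of neural fate (ENSMUSG00000030699, chr7:126781483-126785560, plus strand), was at 0.362 FPKM in WT, 0.181 in Pcgf1-/- cells and 0.209 in Pcgf1-/-+Pcgf1 cells, or about 12, 6 and 7 fragments. It was highest in WT, and the log2 ratio of Pcgf1-/- over WT was -0.72, within 2-fold. The 74-base exon that 1 of the annotated forms lacks (chr7:126784537-126784610) was included at the full level of the gene in all libraries. Ppp4c, a phosphatase gene on the other strand whose end lies 305 bases from that of Tbx6, stood at 109, 121 and 107 FPKM. The library kit does not mark strand, and any part of Ppp4c in the Tbx6 values was not tested.

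Of the homeobox genes, Gsc and Evx1 had the highest ratios of Pcgf1-/- over WT among the 9 genes. Gsc, the factor of the anterior streak and the organizer (ENSMUSG00000021095, chr12:104471209-104473330, minus strand), was at 0.116 FPKM in WT, 0.537 in Pcgf1-/- cells and 0.755 in Pcgf1-/-+Pcgf1 cells, or about 3, 14 and 19 fragments. The WT library was the low one, and the library with re-expressed Pcgf1 was the highest. On FPKM plus 0.1, Gsc was 2.95-fold higher in Pcgf1-/- than in WT (log2 ratio 1.56) and 3.96-fold higher in Pcgf1-/-+Pcgf1 than in WT (1.99). The lncRNA gene Gm10000 starts on the other strand at the base next to the start of Gsc. As annotated, these genes share no bases, and any part of Gm10000 in the Gsc values was not tested.

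Evx1, a factor of the posterior streak (ENSMUSG00000005503, chr6:52313498-52318378, plus strand), was at 0.0214 FPKM in WT, 0.231 in Pcgf1-/- cells and 0.142 in Pcgf1-/-+Pcgf1 cells, or about 1, 14 and 8 fragments. Evx1 was 2.72-fold higher in Pcgf1-/- than in WT (log2 ratio 1.45), and Pcgf1-/-+Pcgf1 cells lay just inside 2-fold of WT (0.99). The WT value rests on about 1 fragment. The first exon has a long form, that of the principal transcript, and a short form, in which 55 bases (chr6:52314217-52314271) are spliced out. These bases are coding in 1 annotated transcript and are not a whole number of codons. In WT and Pcgf1-/-+Pcgf1 cells the whole level was given to the long form, and in Pcgf1-/- cells the whole level to the short form. The antisense gene Evx1os overlaps Evx1 over 1335 bases, and its share of these reads could not be told apart. Mixl1, the third homeobox gene and an early target of Nodal (ENSMUSG00000026497, chr1:180693043-180697034, minus strand), was listed at 0 in all 3 libraries.

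Of the paired bHLH genes only Mesp2 was listed above 0, and the 0 of Mesp1 is not read as absence. Mesp2, which sets the boundaries of somites (ENSMUSG00000030543, chr7:79810727-79813439, plus strand), was at 0.982 FPKM in WT, 1.80 in Pcgf1-/- cells and 1.74 in Pcgf1-/-+Pcgf1 cells, or about 37, 72 and 68 fragments. Its level was alike in both libraries of the knockout line (log2 ratio -0.05), and both lay above WT within 2-fold (0.81 and 0.76). Mesp1, the early factor of cardiac mesoderm, is its neighbour (ENSMUSG00000030544, chr7:79792241-79793788, minus strand) and was listed at 0 in each library.

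Fgf8, the only secreted ligand of the group (ENSMUSG00000025219, chr19:45736798-45742915, minus strand), was at 0.420 FPKM in WT, 1.28 in Pcgf1-/- cells and 0.830 in Pcgf1-/-+Pcgf1 cells, or about 9, 20 and 11 fragments. Fgf8 was 2.65-fold higher in Pcgf1-/- than in WT (log2 ratio 1.40). With re-expressed Pcgf1 it lay between the other libraries, within 2-fold of each. Part of these FPKM differences comes from transcript length. The transcripts above 0 had 1056 and 1168 bases in WT. Most of the level was given to transcripts of 843 and 630 bases in Pcgf1-/- cells and of 630 bases in Pcgf1-/-+Pcgf1 cells. By fragments, Pcgf1-/-+Pcgf1 cells (about 11) lay close to WT (about 9). Fgf8 is made in several splice forms, and those known as Fgf8b and Fgf8a differ by 33 bases, or 11 codons, at the start of 1 exon. The stretch lies at chr19:45741647-45741679 and is coding in 2 annotated transcripts. Fgf8b is known to bind FGF receptors more tightly than Fgf8a. The sequences around this junction are shown because the libraries differed there. They are from 2 GENCODE transcripts in the sense of the gene, 5′ to 3′, with the 33 bases in capitals. Both transcripts have the second annotated exon before the junction. The long one was listed at 0 in Pcgf1-/- cells, and the short one at 0 in WT and Pcgf1-/-+Pcgf1 cells.

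Fgf8 long acceptor: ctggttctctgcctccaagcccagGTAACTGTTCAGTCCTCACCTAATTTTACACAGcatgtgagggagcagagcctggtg
Fgf8 short acceptor: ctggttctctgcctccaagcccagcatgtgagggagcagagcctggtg

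Transcripts with the 33 bases stood at 0.286 FPKM in WT, 0.497 in Pcgf1-/- cells and 0.830 in Pcgf1-/-+Pcgf1 cells. Those without them stood at 0.134, 0.781 and 0 FPKM. The share of Fgf8 with the 33 bases was therefore 68.1% in WT, 38.9% in Pcgf1-/- cells and 100% in Pcgf1-/-+Pcgf1 cells. Within these shares the transcripts differed too. The long form in WT had the second annotated exon (0.286 FPKM), and in Pcgf1-/- cells the first exon was joined straight to the 33 bases (0.497 FPKM). That join was also the main form in Pcgf1-/-+Pcgf1 cells, at 0.713 FPKM, beside 0.117 FPKM with the second exon. The exon it skips is coding in 5 annotated transcripts, and its 37 bases are not a whole number of codons. The protein from this join was not examined, so the shares above are not shares of Fgf8b. In Pcgf1-/- cells most of the short form came from a transcript at 0.700 FPKM that was listed at 0 in the other libraries. An 87-base exon upstream (chr19:45741911-45741997) was listed at 0 in all 3 libraries. Each transcript rests on about 12 fragments or fewer, and no interval can be given for the shares, since FPKM carry no counts.

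Eomes also had a short form in 1 library. The long last exon took 1.39 FPKM in WT, 2.195 in Pcgf1-/- cells and 0.895 in Pcgf1-/-+Pcgf1 cells. The short form, which lacks the first 57 bases or 19 codons of that exon (chr9:118484274-118484330), was at 0.330 FPKM in Pcgf1-/-+Pcgf1 cells, about 24 fragments, and at 0 in the others. The long form was 73.0% of Eomes in Pcgf1-/-+Pcgf1 cells. The study's RT-PCR primers for both T-box genes were located on the annotated transcripts, because they decide which of these forms that assay could see. They are given 5′ to 3′.

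T forward primer: ccaaggacagagagacggct
T reverse primer: agtaggcatgttccaagggc
Eomes forward primer: tgaatgaaccttccaagactcaga
Eomes reverse primer: ggcttgaggcaaagtgttgaca

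Both T primers lie in exon 8 of the principal transcript, 281 bases apart end to end, and match neither of the short annotated transcripts. That exon held 0.0761 FPKM in WT, 0.17 in Pcgf1-/- cells and 0.331 in Pcgf1-/-+Pcgf1 cells. The Eomes primers lie in exons 4 and 6 and span the differing stretch, with a product of 281 bases from the long form and 224 bases from the short form. The antisense gene Gm33460 overlaps the end of Eomes over 574 bases.

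**Figure D2:**
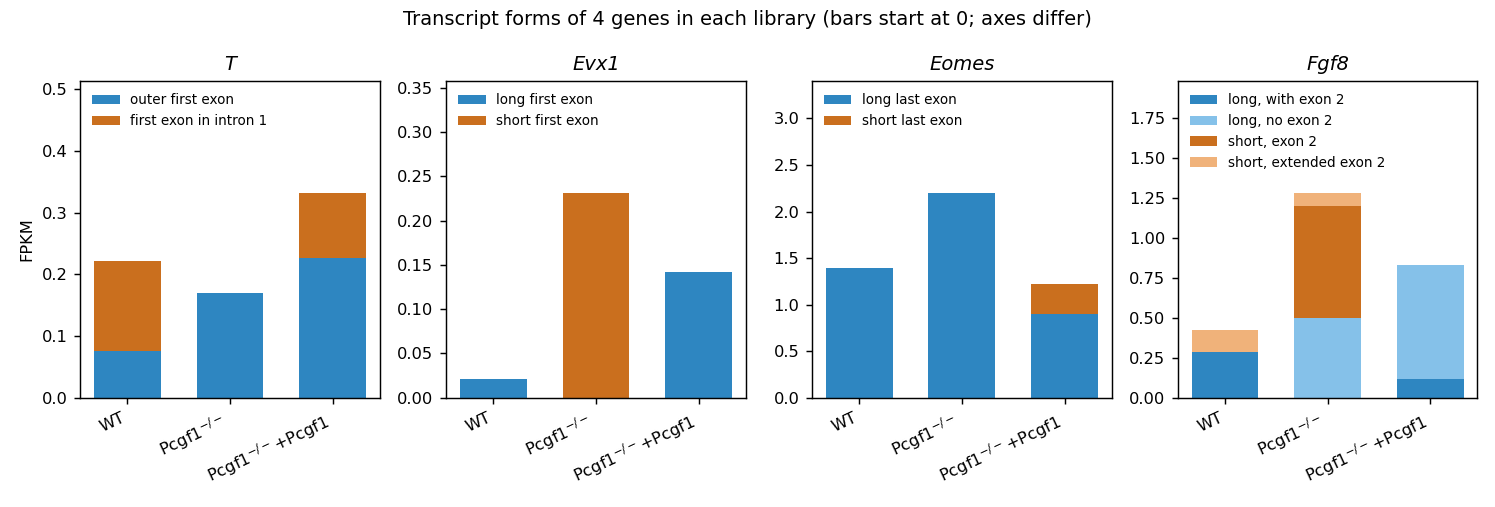
Level in FPKM (vertical, from 0, with a separate scale for each gene) of the transcript forms of T, Evx1, Eomes and Fgf8 stacked for each library (horizontal, 1 bar per library). Evx1 is all of the short first exon in Pcgf1-/- cells only, and Fgf8 with the short acceptor is present in WT and Pcgf1-/- cells.

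For Pcgf1-/- against WT, 3 of the 9 genes were called higher beyond 2-fold (Gsc, Evx1 and Fgf8) and 0 lower. Over all 25350 genes, 2.16% were called higher and 4.98% lower. Many of those genes were at 0 in both libraries, and a closer background is given by the 4221 genes whose larger value was between 0.1 and 3 FPKM, the range of the streak regulators above 0. Of these, 8.74% were called higher and 23.0% lower. The median log2 ratio of the 7 regulators above 0 was 0.81, against -0.12 over the 13424 genes above 0 in either library. With Mixl1 and Mesp1 included at 0 it was 0.62. Of the 7, 5 lay above WT and 2 below (T and Tbx6). Scaling the libraries by the median of ratios, a shift of 0.11 on the log2 scale before the pseudocount, left these counts as they were. With a pseudocount of 1 FPKM in place of 0.1, none of the 9 was called higher, and 0.631% of all genes were.

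**Figure D3:**
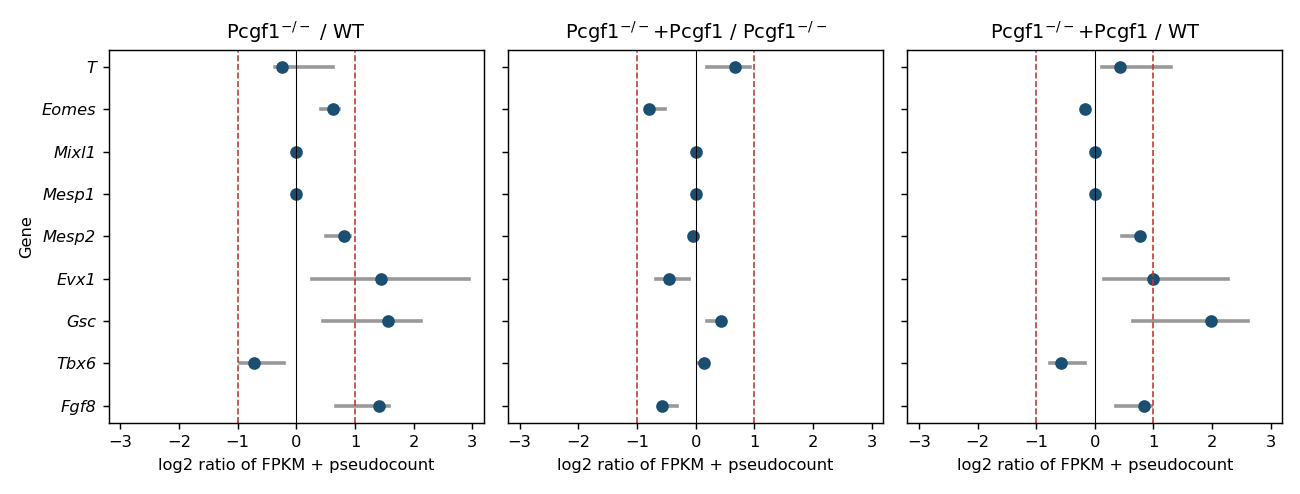
Log2 ratio of FPKM plus a pseudocount (horizontal) of each of the 9 genes (vertical) in the comparisons of the 3 libraries, with points for the value at a pseudocount of 0.1 and grey lines for the range over all settings tried. Dashed lines mark 2-fold, and the lines of Evx1, Gsc and Fgf8 reach from inside to outside it in Pcgf1-/- over WT.

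With Pcgf1 re-expressed, 0 of the 9 genes lay beyond 2-fold of Pcgf1-/- cells in either direction. Over all genes, 6.35% were called higher and 2.22% lower in this comparison, and among genes of 0.1 to 3 FPKM 28.9% and 6.87%. The log2 ratio of Pcgf1-/-+Pcgf1 over Pcgf1-/- was -0.57 for Fgf8, -0.45 for Evx1 and 0.42 for Gsc, the genes called in Pcgf1-/- over WT. Fgf8 and Evx1 thus lay between the other libraries, and Gsc lay further from WT than in Pcgf1-/- cells. For Pcgf1-/-+Pcgf1 against WT, Gsc was the 1 gene called higher, and 0 were called lower. Over all genes 3.99% were called higher and 2.36% lower, and among genes of 0.1 to 3 FPKM 18.3% and 9.63%.

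**Figure D4:**
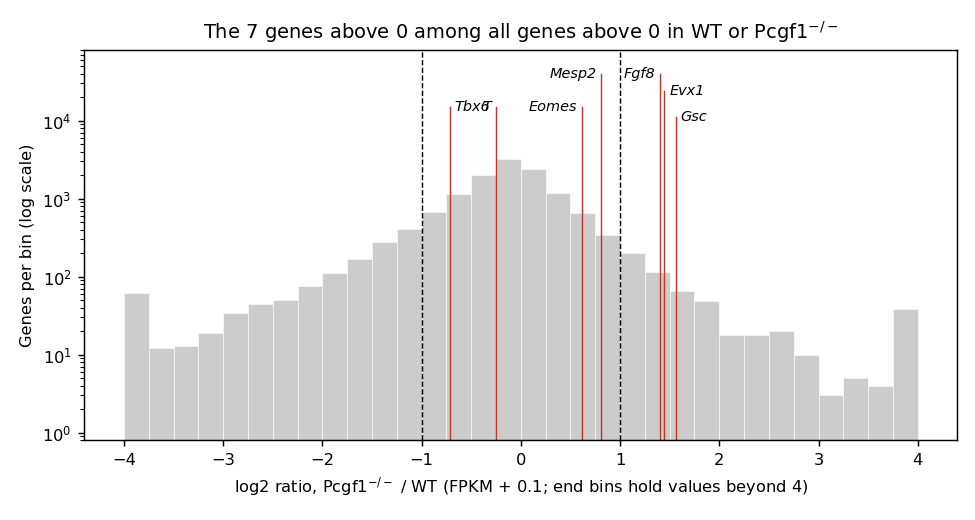
Number of genes per bin on a log scale (vertical) by log2 ratio of Pcgf1-/- over WT on FPKM plus 0.1 (horizontal), for genes above 0 in either library, with red lines at the 7 streak regulators above 0. Fgf8, Evx1 and Gsc lie beyond the dashed line of 2-fold on the upper side, and none lies beyond it on the lower side.

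Upstream of these factors, the ligands and co-receptors that induce the streak were compared from a list of 17. Bmp4, which induces posterior streak and mesoderm, was at 2.64 FPKM in WT, 19.97 in Pcgf1-/- cells and 5.69 in Pcgf1-/-+Pcgf1 cells (log2 ratio of Pcgf1-/- over WT 2.87), the 1 gene of the list called higher. Of 2 genes called lower, Wnt5a, a ligand of the noncanonical Wnt pathway, was at 1.97, 0.210 and 0.926 FPKM (-2.74). The other was Cfc1, a co-receptor of Nodal, at 0.488 FPKM in WT, listed at 0 in Pcgf1-/- cells and at 0.0669 with Pcgf1 re-expressed. Nodal, the main inducer of the streak, and Wnt3 are given for their role, after their values had been seen. Nodal was at 23.6, 24.8 and 22.7 FPKM in WT, Pcgf1-/- and Pcgf1-/-+Pcgf1 cells, and Wnt3 was at 0.223, 0.183 and 0.481 FPKM. The median log2 ratio of the list in Pcgf1-/- over WT was -0.13.

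Of 19 measured receptors and effectors of these pathways, 1 was called higher and 1 lower in Pcgf1-/- over WT. The lower one, the activin receptor gene Acvr2b, was at 4.20 FPKM in WT, listed at 0 in Pcgf1-/- cells and at 4.24 in Pcgf1-/-+Pcgf1 cells. Since the 0 of this 1 library can be a failed estimate, its call rests on an entry that could not be checked. The higher one was the FGF receptor gene Fgfr3, at 0.162, 0.777 and 0.698 FPKM. Of 12 measured antagonists and feedback genes, 0 were called in either direction. Among them Dusp6, a phosphatase induced by FGF signalling, was at 44.5, 69.5 and 24.4 FPKM, and Sfrp1, a secreted Wnt antagonist, at 34.1, 33.5 and 34.2 FPKM. Lefty1, Lefty2 and Nog shared joined names with other genes in at least 1 library and were not measured.

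Of 25 further measured factors of the streak and mesoderm, 4 were called higher and 3 lower in Pcgf1-/- over WT. Cdx1, a posterior homeobox factor, was at 0.204 FPKM in WT, 1.06 in Pcgf1-/- cells and 0.811 in Pcgf1-/-+Pcgf1 cells (log2 ratio 1.93). Tbx3, a T-box factor also expressed in ES cells, was at 0.233, 1.43 and 3.61 FPKM (2.198), and Tbx20, a cardiac T-box factor, at 0.867, 2.66 and 0.865 FPKM (1.51). The fourth was Gata6, an endoderm and cardiac factor, at 0.136, 0.410 and 0.129 FPKM (1.11). The genes called lower were Kdr (Flk1), the receptor of early blood and vessel mesoderm, at 2.13, 0.198 and 1.33 FPKM (-2.90), the Notch ligand gene Dll1 of the presomitic mesoderm at 2.94, 0.348 and 1.76 FPKM (-2.76), and Dll3 at 8.83, 4.35 and 6.61 FPKM.

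Markers of other cells that such cultures can hold were measured beside these. Of 13 feeder fibroblast markers, 0 were called higher and 3 lower in Pcgf1-/- over WT, with a summed level of 26.4 FPKM in WT, 15.3 in Pcgf1-/- cells and 29.7 in Pcgf1-/-+Pcgf1 cells. Col1a1 was at 1.88, 0.390 and 2.21 FPKM and Thy1, the largest part of each sum, at 14.2, 6.39 and 13.5 FPKM. The third gene called was the collagen gene Col1a2 at 0.635, 0.0213 and 0.148 FPKM, while Postn was at 0 in all. Of the 12 above 0 in WT or Pcgf1-/- cells, 9 lay below WT in Pcgf1-/- cells and 3 did not. Those 3 were Dcn at 0.352, 0.779 and 1.18 FPKM, Loxl1 at 1.41, 1.80 and 2.46 FPKM, and Col5a1 at 2.54, 2.55 and 3.10 FPKM. Dcn, Loxl1 and Col5a1 are named after their values were seen. Of 8 endoderm markers, 3 were called higher and 0 lower, and the summed level was 11.96, 26.7 and 10.1 FPKM, of which Col4a1, a basement membrane collagen, made 9.74, 24.02 and 7.14 FPKM. The other genes called were Gata6 and Sox7, the latter at 0.144, 0.414 and 0.648 FPKM. Cfc1, Fgfr3, Gata6, Col1a2 and Sox7, all under 1 FPKM, are named after their values were seen, to complete the counts. The defining endoderm genes Gata4, Gata6, Sox17 and Foxa2 were each under 1 FPKM in every library, and Afp was at 0.

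Of 7 trophoblast markers, 3 were called higher and 0 lower in Pcgf1-/- over WT (Elf5 at 0.153, 1.17 and 0.967 FPKM, Tfap2c at 9.10, 19.4 and 16.6 FPKM, Tead4 at 4.99, 10.6 and 4.95 FPKM). The 3 others above 0 lay below WT within 2-fold. Krt8 was at 68.9, 66.3 and 28.9 FPKM, Krt18 at 61.1, 49.1 and 21.0 FPKM, and Cdx2 at 0.252, 0.203 and 0.123 FPKM. Krt8, Krt18 and Cdx2 are named after their values were seen. The summed level was 144, 147 and 72.4 FPKM, most of it Krt8 and Krt18, and Hand1 was at 0 in all. Of 6 neural markers, 0 were called in either direction, and the highest in WT were Olig2 at 39.0, 43.1 and 22.0 FPKM and Map2 at 4.36, 4.12 and 3.46 FPKM. Of 9 ES cell markers, 0 were called higher and 1 lower, Klf4, at 2.62 FPKM in WT, 1.19 in Pcgf1-/- cells and 8.07 in Pcgf1-/-+Pcgf1 cells. Its log2 ratio of Pcgf1-/- over WT was -1.08, also nearer to the limit than the scaling shift of 0.11. Genes of the lists that were not listed alone in all 3 samples were not measured. Among these were Sox2, Dppa5a and Fbxo15 (ES cell), Col3a1, S100a4 and Tagln (feeder), Sox1 and Tubb3 (neural) and Gata3 (trophoblast). Msgn1, Foxf1, Foxc1, Foxc2 and Pdgfra of the further mesoderm factors and Fgfr2, Fzd7 and Ctnnb1 of the receptors and effectors were not measured either. The part of other cell types in the levels of the streak regulators was not tested. In bulk RNA, fewer cells of a type and less RNA per cell cannot be told apart.

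For each regulator that reached 1 FPKM, the genes with the most similar levels were sought by the Euclidean distance of log2 FPKM plus 0.1 over the 3 libraries. For Eomes these were Lif, the cytokine gene, at a distance of 0.12, Itga7 at 0.13 and Krt20 at 0.14. For Mesp2 they were Ptges at 0.03, Trip11 at 0.09 and Cpm at 0.09, and for Fgf8 they were Edn2 at 0.28, Gcnt3 at 0.33 and Rin3 at 0.34. With 3 libraries and 25350 genes such likeness is a description of these values.

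PRC1.1 is known to be brought to DNA by Kdm2b, which binds unmethylated CpG dinucleotides, and the CpG content of the promoters was therefore counted. RefSeq promoter windows of 300 bases (250 before and 50 after the start, GRCm38.p6) were matched by symbol for 7 of the 9 genes, all but Mixl1 and Fgf8. Gsc had 25 CpG dinucleotides, T 17, Evx1 12, Eomes and Mesp2 10 each, Tbx6 7 and Mesp1 4. For Gsc, 94 of the 250 bases before the RefSeq start lie within the gene as GENCODE annotates it. The 156 bases before that gene hold 8 of the 25 CpG. Over 32851 promoters the median was 7, with quartiles at 3 and 20. Gsc had more than 81.6% of all promoters, and Mesp1, listed at 0 in all libraries, had more than 31.4%. Both called genes with a window, Gsc and Evx1, lay above the median of all promoters, and so did T, Eomes and Mesp2, which were not called.

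**Figure D5:**
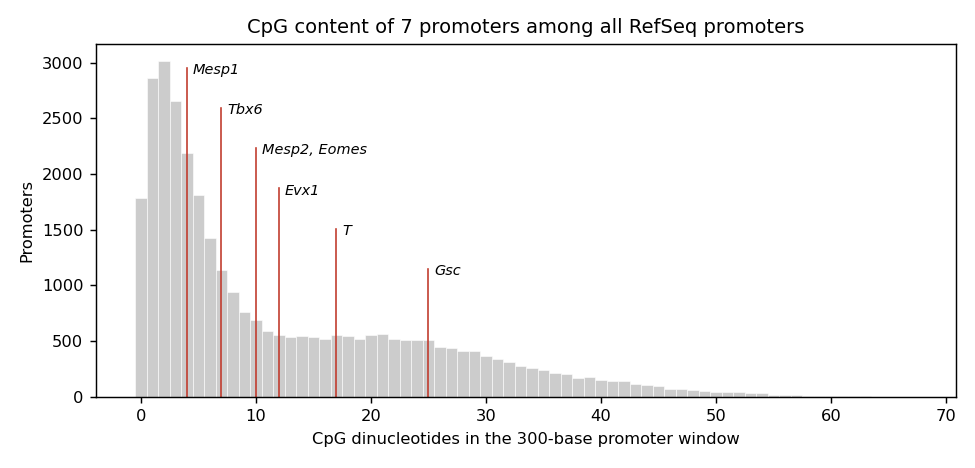
Number of RefSeq promoters (vertical) by their count of CpG dinucleotides in a 300-base window (horizontal), with red lines at the 7 streak regulators that were matched. Gsc, with 25, is the highest of the 7, and Mesp1, with 4, the lowest.

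Promoter sequences are shown for the pair of called genes and for Eomes, the most abundant in WT, to let the CpG content be seen. They are read 5′ to 3′ on the strand of the gene, end before its first annotated base, and have each CpG in capitals. The Gsc stretch is chr12:104473331-104473486 (minus strand), that of Evx1 chr6:52313248-52313497 (plus strand) and that of Eomes chr9:118477939-118478188 (plus strand).

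Gsc: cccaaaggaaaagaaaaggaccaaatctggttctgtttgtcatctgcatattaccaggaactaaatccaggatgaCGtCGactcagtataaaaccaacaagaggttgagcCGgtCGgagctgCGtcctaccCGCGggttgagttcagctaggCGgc
Evx1: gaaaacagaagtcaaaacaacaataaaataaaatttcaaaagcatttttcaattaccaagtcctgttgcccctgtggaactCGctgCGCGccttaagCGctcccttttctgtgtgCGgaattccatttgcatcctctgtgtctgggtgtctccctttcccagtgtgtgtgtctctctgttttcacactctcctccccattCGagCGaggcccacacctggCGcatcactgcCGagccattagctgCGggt
Eomes: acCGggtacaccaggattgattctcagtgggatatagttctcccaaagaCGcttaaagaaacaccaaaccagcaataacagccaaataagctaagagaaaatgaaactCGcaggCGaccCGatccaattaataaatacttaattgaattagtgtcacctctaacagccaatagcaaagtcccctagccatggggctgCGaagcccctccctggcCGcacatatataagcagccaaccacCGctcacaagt

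The Gsc stretch of 156 bases holds 8 CpG, the Evx1 stretch of 250 bases holds 10 and that of Eomes 8. Motifs of factors that act in the streak were searched on both strands of the full windows. The T-box motif AGGTGTGA was in the window of Mesp1, as in 1.28% of all promoters, and the TCF/LEF motif ATCAAAG was also in that of Mesp1, as in 3.73% of all. The FOXH1 motif AATCCACA, of the factor that takes Nodal signals to DNA, was in the window of Mesp2, as in 0.855% of all promoters. None of the 3 motifs was in the windows of T, Eomes, Evx1, Gsc or Tbx6.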

How the data were processed

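RNA was sequenced from 3 mouse ES cell samples, 1 per genotype, after poly-A selection with a kit that does not mark strand. The files deposited by the authors give an FPKM for every first exon, last exon and splicing event of each sample. Submitters' processing notes name TopHat2 2.0.12, Cufflinks 2.2.1, HTSeq 0.6.0 and mm10. The tool behind these event tables is not given in the sources used here. A gene's value was the larger of the summed FPKM of its first-exon and of its last-exon entries. Loci with comma-joined names were not used.

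Log2 ratios of FPKM plus 0.1 were computed with Python 3.11.15 and pandas 2.3.3 and called beyond 2-fold. The calling step was also run on a simulated table in which genes above 2 FPKM in WT were changed 4-fold without noise. That run checked the code only, and says nothing on calls of genes as low as the streak regulators. With 1 sample per group no test between groups was possible. Fragment numbers were FPKM times transcript length (GENCODE vM21) over the smallest step of each library, and total depth is otherwise unknown. The genes described and the lists were chosen with earlier results of these data known. From each list, genes beyond 2-fold in Pcgf1-/- over WT with at least 1 FPKM in either were named, at most 4 per direction, or the 2 highest in WT where none passed. Alternatives were other pseudocounts, first-exon or last-exon entries alone, a filter at 1 FPKM and median-of-ratios scaling.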

Additional observations from a re-analysis of the deposited data

How the results depend on the processing

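The count of streak regulators called higher in Pcgf1-/- over WT was 3 at a pseudocount of 0.1 FPKM. It was 0 at a pseudocount of 1 FPKM and 1 of the 3 genes left when at least 1 FPKM was asked for in either library. Over all genes, 2.16% were called higher at a pseudocount of 0.1 FPKM and 0.631% at 1 FPKM. For Pcgf1-/-+Pcgf1 over WT the count was 1. It was 0 at a pseudocount of 1 FPKM and 0 of 2 genes with the filter. It was 2 at a pseudocount of 0.01 FPKM (Evx1 in addition), 2 from last-exon entries only (T in addition) and 2 after median-of-ratios scaling (Evx1 in addition). The share of all genes called higher in this comparison moved as well, from 3.99% at 0.1 FPKM to 0.750% at 1 FPKM and 7.33% at 0.01 FPKM. Shares of all genes under the filter, last-exon entries and scaling were not computed. The counts of genes called lower, and those of Pcgf1-/-+Pcgf1 over Pcgf1-/-, were 0 under each of these settings. The log2 ratio of T in Pcgf1-/- over WT ranged from -0.36 to 0.62, and that of Evx1 from 0.27 to 2.94. No paired analysis was possible because each genotype has 1 library and none was left out in turn. Levels of 1 to 20 fragments, those of the genes above 0 other than Eomes and Mesp2, limit what these ratios can show.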
